A study of Homo sapiens with 12 samples.

Results

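The comparison described here is OSKM day 6 against day 0 in dH1f cells in which MRG15 was knocked out with a guide RNA. dH1f is a fibroblast line derived from H1 human embryonic stem cells, and MRG15 is the chromatin protein encoded by MORF4L1. The OSKM factors, which reprogram somatic cells to pluripotency, are OCT4 (encoded by POU5F1) with SOX2, KLF4 and MYC. The KO day 6 group held 3 libraries from MRG15 knockout cells collected after OSKM, on the sixth day of reprogramming, and the KO day 0 group held 3 libraries from MRG15 knockout cells before OSKM. The NT day 6 and NT day 0 groups, with 3 libraries each, came from dH1f cells with a non-targeting lentiviral guide vector, labelled wild type, and are used only for the difference between KO and NT. All KO libraries carry the same guide code. The labels do not say whether replicates were separate infections or cultures, and the p-values cover only the spread from library to library, which may be technical. No day 6 library without OSKM was analysed here, so OSKM and 6 days of culture cannot be told apart. Of 60660 gene identifiers, 14893 had a mean over the 6 KO libraries at least 1 above the table minimum and make up the comparison.

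MRG15 is a chromodomain protein that reads methylated lysine 36 of histone H3 and is a subunit of the NuA4 acetyltransferase and SIN3 deacetylase complexes. In the first days of reprogramming, fibroblasts are known to lose mesenchymal gene expression, divide faster and take up epithelial genes, while most of the pluripotency network follows later and in few cells. Values below are estimated normalised counts, obtained from the deposited variance-stabilised (VST) values, and are given per library or as mean ± SD over 3 libraries. A difference is KO day 6 minus KO day 0 in VST units, on a log2 scale, with its SE. For genes at or near 0 in a group the difference depends on the transformation and is not a fold. Calls rest on limma with p-values adjusted by the method of Benjamini and Hochberg, at a threshold of 0.05, and the adjusted p-values are the ones printed. In bulk RNA, fewer cells of a type and less RNA per cell cannot be told apart, and reads of introduced factors were not separated from those of the cells' own genes.

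MORF4L1 (ENSG00000185787, chr15:78810487-78898133, GRCh38) was present at 1059, 961 and 1040.03 in the day 6 libraries, against 1292, 1301 and 1421 in the day 0 libraries. The NT libraries averaged 6956 ± 217 on day 6 and 7773 ± 90.4 on day 0, so the knockout label was matched by lower MORF4L1 in each KO library, with reads remaining. Within KO cells MORF4L1 was lower on day 6, by -0.37 ± 0.050 (adjusted p = 8.02e-06). In NT cells MORF4L1 was lower on day 6 too, by -0.16 ± 0.050 (adjusted p = 0.0117). The KO difference minus the NT difference was -0.21 (adjusted p = 0.0472). Its paralog MORF4L2 had 4933 ± 111 on day 6 and 6204 ± 283 on day 0, with a difference of -0.33. Estimated depth was 17.8 to 20.5 M reads in KO day 6 libraries and 19.8 to 22.03 M in KO day 0 libraries. The 10 most abundant genes took 6.71 ± 0.234% of estimated reads on day 6 and 13.3 ± 0.263% on day 0, and mitochondrial transcripts took 5.34 ± 0.299% and 4.27 ± 0.0756% on those days. The part of these shifts in the results was not tested.

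The 6 KO libraries split by day. The first principal component held 94.6% of their variance. Of the genes tested, 11001 (73.9%) were called, 5643 (37.9%) higher and 5358 (36%) lower on day 6, and the 3 libraries of one day lay wholly above those of the other for 11378 genes (76.4%). With so many genes called, a count of members is read against these shares. The median difference over all genes tested was 0.015 and the median absolute difference was 0.491. Among called genes, 1642 were higher and 1691 lower by at least 1, 100 were higher and 16 lower by at least 4. For 932 genes the 95% interval of the difference lay within 0.25 of 0. Of protein-coding genes, 5256 of 13281 were higher and 4867 lower, and of genes annotated as lincRNA 120 of 404 were higher and 131 lower. The lowest mean inside the filter was 1.0007 above the table minimum and the highest outside was 0.99947, and 416 genes lay within 0.1 above the limit against 430 within 0.1 below it.

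**Figure D1:**
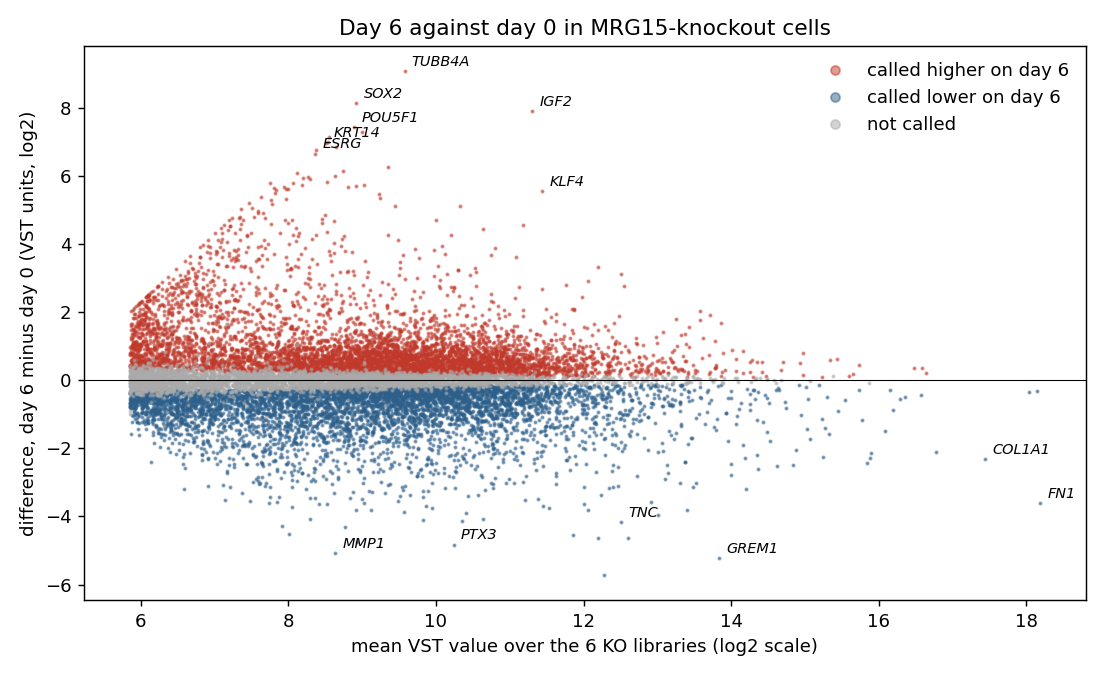
Each point is 1 of the 14893 genes tested, with its mean VST value over the 6 KO libraries on the horizontal axis (log2 scale) and its difference, day 6 minus day 0, on the vertical axis (VST units). Red genes were called higher, blue genes lower and grey genes were not called. TUBB4A stands highest at 9.08 and GREM1 is labelled near the lower edge at -5.22, and differences beyond 4 are more frequent upward (100 genes) than downward (16 genes).

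The 4 reprogramming factors were higher on day 6 in each library. SOX2 (ENSG00000181449, chr3:181711924-181714436) had 7754, 8352 and 8171 in the day 6 libraries, against 0, 0 and 0 in the day 0 libraries. POU5F1 (ENSG00000204531, chr6:31164337-31180731) had 6056, 6329.95 and 6249 in the day 6 libraries, against 1.13, 0 and 6.74 in the day 0 libraries. SOX2 was thus listed at 0 in each day 0 library, while POU5F1 had a few reads in 2 of the 3. KLF4, a zinc finger factor that fibroblasts also express, had 18008, 19513 and 19474 in the day 6 libraries, against 356, 340.3 and 352 in the day 0 libraries. MYC, a growth regulator already present before OSKM, had 16495, 17048 and 17722 in the day 6 libraries, against 1958, 1798 and 2018 in the day 0 libraries. Neither pair of groups overlapped, and the differences were 5.56 ± 0.044 for KLF4 (adjusted p = 3.13e-19) and 3.11 ± 0.047 for MYC (adjusted p = 1.96e-16).

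Of 40 listed genes of the pluripotency network, 26 passed the filter, and 25 of these were called higher and 1, SFRP2, a secreted WNT antagonist, lower. Of the 26, 14 reached the filter limit in the day 6 mean and not in the day 0 mean, so they could enter only by being higher on day 6, and their calls are a description. Among the 12 whose day 0 mean was itself above the limit, 11 were higher and 1 lower. ESRG, a primate-specific long noncoding RNA of pluripotent cells, had 3062, 3163 and 3566 in the day 6 libraries, against 1.05, 1.01 and 0 in the day 0 libraries. L1TD1, an RNA-binding protein of embryonic stem cells, had 3325, 2859.7 and 3268 in the day 6 libraries, against 20.4, 14.1 and 19.9 in the day 0 libraries. GDF3, a TGF-beta family ligand, had 1198, 1238 and 1214 in the day 6 libraries, against 1.05, 0 and 0 in the day 0 libraries. These genes were low on day 0 and well above that on day 6, with no overlap of the groups. DNMT3L, a cofactor of de novo DNA methylation, had 1009, 1063 and 994 in the day 6 libraries, against 0, 0 and 0 in the day 0 libraries. NANOG, a core pluripotency factor, had 443, 281 and 411 in the day 6 libraries, against 9.65, 0.334 and 2.997 in the day 0 libraries, with the lowest day 6 library still above every day 0 library. TDGF1, a co-receptor for NODAL, had 1267, 1247 and 1289 in the day 6 libraries, against 0, 0 and 15.5 in the day 0 libraries. LEFTY2, an inhibitor of NODAL, had 522 ± 40.6 on day 6 and 1.42 ± 2.46 on day 0, and SALL4, a zinc finger factor of stem cells, had 1248 ± 233 on day 6 and 63.8 ± 20.8 on day 0. LIN28A, which blocks maturation of let-7 microRNAs, had 311 ± 21.3 on day 6 and 1.005 ± 0.99 on day 0, and TRIM71, a let-7 target, had 1015 ± 9.85 on day 6 and 3.19 ± 2.81 on day 0. UTF1 and PRDM14 fell outside the filter, at 44.6, 38.7 and 47.1 and 26.4, 33.01 and 30.95 on day 6 and 0 in every KO day 0 library. The highest count of an untested list member was 47.1.

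Surface markers used to follow reprogramming split in direction. Of 16 tested, 10 were higher and 6 lower. Of these, 4 reached the filter limit on day 6 alone, and of the 12 above it on day 0, 6 were higher and 6 lower. ALPL, alkaline phosphatase, had 1324, 1293 and 1508 in the day 6 libraries, against 94.7, 109 and 107 in the day 0 libraries. CD24 had 14885, 13797 and 16031 in the day 6 libraries, against 1384, 1528 and 1362 in the day 0 libraries, and PODXL, the carrier of the TRA-1 antigens, had 11469, 11882 and 11923 in the day 6 libraries, against 1496, 1458 and 1551 in the day 0 libraries. On the other side, ANPEP, the aminopeptidase known as CD13 and a fibroblast marker, had 374, 511 and 377 in the day 6 libraries, against 4848, 4778 and 4766 in the day 0 libraries. The mesenchymal markers THY1, ENG, NT5E and CD44 were also lower, by -1.26, -1.65, -1.05 and -0.77. The remaining lower marker was ICAM1, an adhesion molecule that binds leukocyte integrins, with 479.8 ± 15.8 on day 6 and 1277 ± 75.1 on day 0.

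**Figure D2:**
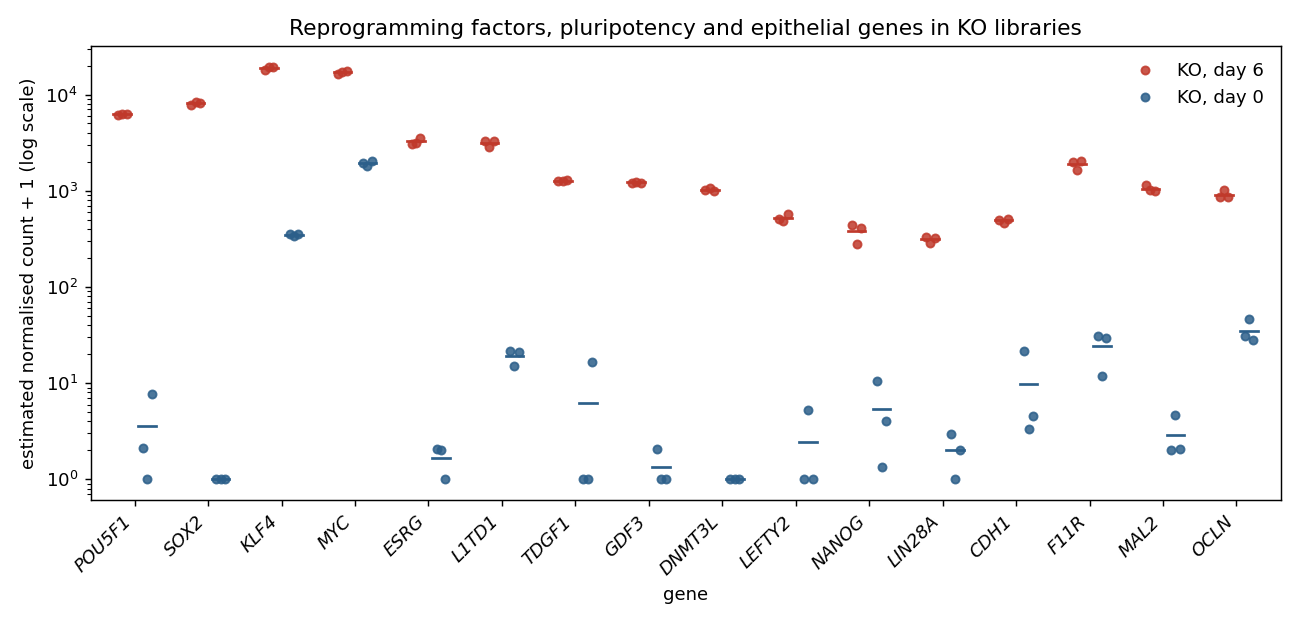
Estimated normalised counts plus 1 (log axis) are shown for 16 raised genes, with KO day 6 libraries in red at the left and KO day 0 libraries in blue at the right of each gene. Points are libraries and bars are means of 3 libraries. The day 6 libraries lie above the day 0 libraries for all 16 genes, and SOX2 and DNMT3L were listed at 0 in all 3 day 0 libraries.

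Promoter sequences of genes with large differences are shown so that the composition described next can be seen. The sequences are RefSeq promoters on GRCh38.p14, 250 bases ending just before the transcription start, 5′ to 3′ in the direction of the gene, with capitals marking matches to the motifs searched on both strands. TUBB4A, a neuronal beta-tubulin, PI16, a peptidase inhibitor, and SERPINB9, an inhibitor of granzyme B, were raised. GREM1, a BMP antagonist, PTX3, a secreted pattern recognition protein, and OXTR, the oxytocin receptor, were lowered.
TUBB4A (chr19:6502849-6503098, minus strand): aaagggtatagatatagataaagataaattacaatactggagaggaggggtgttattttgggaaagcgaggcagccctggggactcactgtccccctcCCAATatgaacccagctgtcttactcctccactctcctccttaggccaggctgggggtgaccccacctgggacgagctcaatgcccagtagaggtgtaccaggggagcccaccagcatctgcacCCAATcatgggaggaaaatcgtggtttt
PI16 (chr6:36948046-36948295, plus strand): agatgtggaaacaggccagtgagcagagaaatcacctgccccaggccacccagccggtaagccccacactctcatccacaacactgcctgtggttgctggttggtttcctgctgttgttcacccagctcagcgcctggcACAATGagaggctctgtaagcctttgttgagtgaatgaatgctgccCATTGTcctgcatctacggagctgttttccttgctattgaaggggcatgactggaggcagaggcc
SERPINB9 (chr6:2903310-2903559, minus strand): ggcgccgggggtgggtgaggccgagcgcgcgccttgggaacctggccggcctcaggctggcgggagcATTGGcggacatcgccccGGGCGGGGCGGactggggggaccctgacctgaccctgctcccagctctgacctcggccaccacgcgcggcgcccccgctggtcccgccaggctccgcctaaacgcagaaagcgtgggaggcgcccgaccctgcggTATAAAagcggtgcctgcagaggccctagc
GREM1 (chr15:32717754-32718003, plus strand): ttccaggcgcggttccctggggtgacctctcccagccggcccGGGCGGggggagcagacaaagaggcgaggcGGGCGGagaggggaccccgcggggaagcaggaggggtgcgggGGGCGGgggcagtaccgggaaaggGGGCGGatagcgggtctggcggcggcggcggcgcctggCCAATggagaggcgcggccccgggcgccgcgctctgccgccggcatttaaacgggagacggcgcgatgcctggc
PTX3 (chr3:157436600-157436849, plus strand): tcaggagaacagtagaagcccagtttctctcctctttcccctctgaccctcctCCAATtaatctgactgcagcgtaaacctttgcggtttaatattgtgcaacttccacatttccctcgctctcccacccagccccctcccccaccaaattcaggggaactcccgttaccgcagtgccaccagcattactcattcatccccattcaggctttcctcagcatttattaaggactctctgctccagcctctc
OXTR (chr3:8769614-8769863, minus strand): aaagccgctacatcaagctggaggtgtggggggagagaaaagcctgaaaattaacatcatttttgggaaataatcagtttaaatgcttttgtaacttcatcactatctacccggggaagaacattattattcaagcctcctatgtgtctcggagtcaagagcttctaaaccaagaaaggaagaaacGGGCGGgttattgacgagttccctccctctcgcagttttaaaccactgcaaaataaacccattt
The capitals in TUBB4A and PTX3 are CCAAT boxes, those in PI16 are SOX cores (CATTGT), those in OXTR a GC box (GGGCGG), and SERPINB9 and GREM1 hold GC and CCAAT boxes, SERPINB9 also a TATA box.

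Of 14847 tested symbols, 11269 had a promoter entry. The octamer ATTTGCAT, bound by OCT4, was present in 2.42% of 1196 promoters of genes higher by at least 1, in 1.01% of 1281 promoters of genes lower by at least 1 and in 1.29% of all promoters of genes tested. The SOX core CATTGT had shares of 5.52, 5.15 and 4.97% in the same order. Shares were 3.60, 2.65 and 2.67% for the KLF CACCC box CCACACCC, and 7.27, 8.51 and 8.77% for the MYC E-box CACGTG. The AP-1 motif TGANTCA had shares of 3.60, 5.70 and 3.92%. For CArG boxes, the serum response factor motif, they were 1.34, 2.11 and 1.02%. The ETS motif CCGGAAGT was found in 3.01, 1.72 and 6.94%, and the TATA box TATAAA in 8.03, 7.18 and 5.46%. The median ratio of observed to expected CpG was 0.753, 0.758 and 0.818. Shares of the other motifs searched are not given. Matches are a description of letters and not of binding.

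TUBB4A had the largest difference of the genes named, with 16672, 17493 and 19059.5 in the day 6 libraries, against 1.01, 0 and 1.08 in the day 0 libraries. CALB1, a calcium-binding protein of neurons, had 6388, 6378 and 6375 in the day 6 libraries, against 2.56, 1.94 and 7.19 in the day 0 libraries. CA2, a carbonic anhydrase, had 4475, 4428 and 4323 in the day 6 libraries, against 0, 1.73 and 0 in the day 0 libraries. SERPINB9 had 5589, 5519 and 5798 in the day 6 libraries, against 33.04, 22.98 and 28.8 in the day 0 libraries. SCARA5, a ferritin receptor, had 4134 ± 24.3 on day 6 and 0.678 ± 0.59 on day 0, and PI16 had 4255 ± 141 on day 6 and 2.27 ± 2.47 on day 0. IGF2, an imprinted fetal growth factor, had 35328, 41283 and 40411 in the day 6 libraries, against 115, 129.7 and 89.98 in the day 0 libraries, and its neighbour H19 had 184 ± 3.13 on day 6 and 0.877 ± 0.835 on day 0. All of these genes were separated by day in each library. For all but H19 this was a condition of their choice, so it is a description. Apart from SERPINB9 and IGF2, they reached the filter limit in the day 6 mean and not in the day 0 mean, so they could enter only by being higher on day 6.

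Among epithelial genes, 37 of 46 listed were tested, and 31 were higher and 5 lower. As in the pluripotency network, 17 of these reached the limit on day 6 alone, and of the 20 above it on day 0, 14 were higher and 5 lower. CDH1, the E-cadherin of adherens junctions, had 494, 466 and 511 in the day 6 libraries, against 20.5, 2.37 and 3.53 in the day 0 libraries. EPCAM, an epithelial adhesion molecule, had 182, 215 and 178 in the day 6 libraries, against 1.67, 3.21 and 7.85 in the day 0 libraries. OCLN, a tight junction protein, had 850.02, 1015 and 863 in the day 6 libraries, against 30.2, 45.6 and 26.9 in the day 0 libraries, and F11R, junctional adhesion molecule A, had 1975, 1628 and 2048 in the day 6 libraries, against 29.8, 10.8 and 28.6 in the day 0 libraries. CLDN7 and MAL2 had 627 ± 14.2 and 1048 ± 77.04 on day 6 against 6.39 ± 4.97 and 1.93 ± 1.54 on day 0. CLDN1, a claudin, was lower, with 143 ± 5.24 on day 6 and 1221 ± 38.3 on day 0. The splicing regulators of epithelial cells ESRP1 and ESRP2 had 105 ± 4.87 and 190.5 ± 8.33 on day 6, against 0 ± 0 and 11.4 ± 4.49 on day 0.

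Keratins, the intermediate filaments of epithelia, did not move together. Of 12 tested, 7 were higher, 5 of which reached the filter limit on day 6 alone, and 5 were lower. KRT8 and KRT18, the pair of simple epithelia, had 18302 ± 616 and 10312 ± 37.6 on day 6, against 5157 ± 38.996 and 4311 ± 58.2 on day 0. KRT14, of the basal epidermis, had 4185, 4056 and 3928 in the day 6 libraries, against 3.74, 0 and 0 in the day 0 libraries, and KRT6A had 3415, 3468 and 3364 in the day 6 libraries, against 0, 2.81 and 0 in the day 0 libraries. KRT7 had 59.7, 45.4 and 47.7 in the day 6 libraries, against 879, 860.1 and 840.4 in the day 0 libraries and KRT34, a hair keratin, had 18.5, 18.1 and 25.1 in the day 6 libraries, against 666, 640.4 and 652 in the day 0 libraries, so both were lower. KRT6A, KRT14, KRT16 and KRT17 have near-identical relatives, and the split of reads among them is uncertain. The defining basal factor TP63 was near the limit, at 15.6, 27.1 and 2.31 on day 6 and 17.8, 9.06 and 9.39 on day 0, and KRT5, the usual partner of KRT14, had 13.7, 24.3 and 18.6 and 0.896, 0 and 0 on those days. Their part in the keratin result was not tested.

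The fibroblast and matrix programme was lower. Of 30 fibroblast markers, all tested, 28 were lower and 2 were higher, with a median difference of -1.60. FN1, fibronectin, had 80062, 87388 and 87686 in the day 6 libraries, against 1053757, 986611 and 1090106 in the day 0 libraries, and its share of estimated reads was 0.471% on day 6 and 4.75% on day 0. COL1A1, a chain of type I collagen, had 75062, 80193 and 84629 in the day 6 libraries, against 397132, 393725 and 397395 in the day 0 libraries. COL6A3 and FAP, a fibroblast membrane protease, were lower by -2.24 and -2.54. The 2 higher markers were TWIST1, with 582 ± 56.9 on day 6 and 309 ± 6.38 on day 0, and S100A4, with 8644 ± 332 on day 6 and 2849 ± 298 on day 0. The summed fibroblast markers ranged from 395231 to 420367 on day 6 and from 2250542 to 2385748 on day 0.

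Of 26 collagens tested, 19 were lower and 4 higher. COL12A1, a fibril-associated collagen, had 3676, 3718 and 4003 in the day 6 libraries, against 34021, 33276 and 34899 in the day 0 libraries. COL9A3 and COL10A1, collagens of cartilage, were among the higher ones, with 2717 ± 46.7 and 1166 ± 94.4 on day 6 against 8.38 ± 2.84 and 22.6 ± 15.03 on day 0. Of 38 matrix glycoproteins and proteoglycans, 29 were lower and 7 higher, with a median of -1.63. TNC, tenascin C, had 1453, 1144 and 1370.2 in the day 6 libraries, against 23913, 23751 and 26244 in the day 0 libraries. THBS1, which activates latent TGF-beta, had 2079, 2044 and 1992 in the day 6 libraries, against 32095, 31809.6 and 32584 in the day 0 libraries. PRELP, a leucine-rich proteoglycan, was higher, with 1132 ± 129 on day 6 and 17.04 ± 2.797 on day 0.

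Proteases and their inhibitors were lower in 25 of 31 cases and higher in 3. MMP1, a collagenase, had 15.6, 21.3 and 33.6 in the day 6 libraries, against 2247, 2173 and 2374 in the day 0 libraries. PLAU, urokinase, had 299.7 ± 15.5 on day 6 and 5185 ± 204 on day 0, and LOXL2, a collagen crosslinker, had 2838 ± 122 on day 6 and 40627 ± 933 on day 0. All 35 contractile and TGF-beta target genes were called lower, with a median of -1.72. None overlapped between the days, where 76.4% of all genes tested did not overlap. TAGLN, an actin-binding protein of smooth muscle, had 2039.5, 2205 and 2304 in the day 6 libraries, against 26604, 26683 and 25940.4 in the day 0 libraries, and ACTA2, smooth muscle actin, had 1227, 1281 and 1303 in the day 6 libraries, against 5704, 5738 and 5414 in the day 0 libraries. INHBA, the activin A subunit, had 753, 773 and 726 in the day 6 libraries, against 10794, 10372 and 11066 in the day 0 libraries, and ITGA11, a collagen receptor, had 1152, 1114 and 1338 in the day 6 libraries, against 29555, 31679.7 and 31892 in the day 0 libraries. VIM, vimentin, had 27310.2 ± 847 on day 6 and 132558 ± 1944 on day 0.

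**Figure D3:**
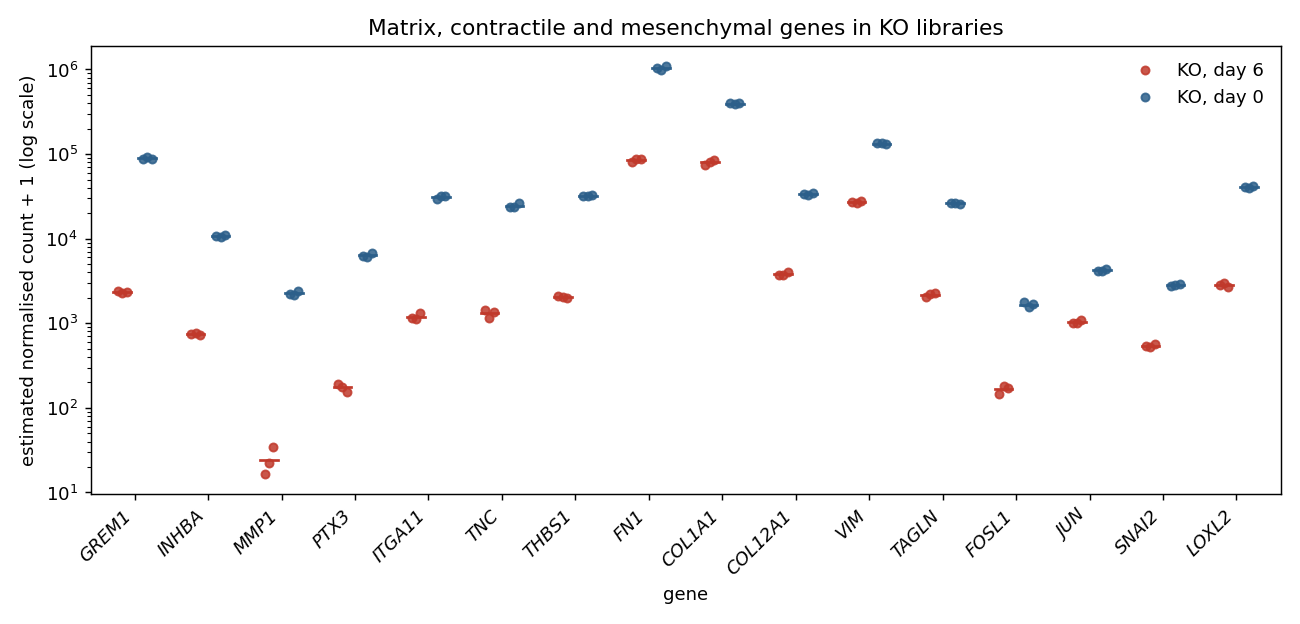
Estimated normalised counts plus 1 (log axis) are shown for 16 lowered genes of matrix, contraction and mesenchymal regulation. KO day 6 libraries are in red at the left and KO day 0 libraries in blue at the right of each gene, points are libraries and bars are means. In each gene the 3 day 6 libraries lie below the 3 day 0 libraries, and MMP1 has the lowest day 6 values, 15.6, 21.3 and 33.6 counts.

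Mesenchymal transcription factors were less uniform. Of 38 tested, 23 were lower and 10 higher, with a median of -0.60. Counting only the 35 above the filter limit on day 0, 23 were lower and 7 higher. SNAI2, a repressor of CDH1, had 533, 527 and 571 in the day 6 libraries, against 2745, 2839.9 and 2930.5 in the day 0 libraries. ZEB1 and ZEB2, repressors of the same class, were lower by -1.23 and -0.54. PRRX1, a homeobox factor of mesenchyme, had 1374 ± 162 on day 6 and 4258 ± 60.9 on day 0, whereas its paralog PRRX2 had 1217 ± 67.3 on day 6 and 10.3 ± 3.88 on day 0. OSR1 had 14.1 ± 8.16 on day 6 and 314 ± 26.4 on day 0, and TBX18, with 596 ± 70.1 on day 6 and 596 ± 55.8 on day 0, was not called. Of 17 AP-1 and immediate early genes, 10 were lower and 6 higher. FOSL1, an AP-1 subunit of fibroblasts, had 146, 179 and 169.6 in the day 6 libraries, against 1763, 1545 and 1679 in the day 0 libraries, JUN had 1009.9, 999 and 1081 in the day 6 libraries, against 4158, 4103 and 4395 in the day 0 libraries, and EGR1 had 2769, 3138 and 3132 in the day 6 libraries, against 748, 755 and 764 in the day 0 libraries. FOS, with 169.7 ± 17.1 on day 6 and 23.8 ± 3.53 on day 0, was higher although FOSL1 and FOSL2 were lower.

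Signalling genes went in both directions. In the BMP pathway 11 of 26 genes were higher and 11 lower, beside 37.9% and 36% of all genes tested. For the 24 above the filter limit on day 0 the counts were 9 and 11. The list's median, -0.05, was positive at 0.01 under quantile normalisation. GREM1, a secreted antagonist that binds BMP ligands, had 2379.99, 2277 and 2339 in the day 6 libraries, against 87450.4, 92071 and 87861 in the day 0 libraries. CHRD, chordin, another antagonist, had 323 ± 42.9 on day 6 and 11.03 ± 4.37 on day 0, and the ligand GDF5 had 17.2 ± 2.79 on day 6 and 696 ± 93.3 on day 0. In the WNT pathway 13 of 32 were higher and 15 lower. Here 5 members reached the filter limit on day 6 alone and could enter only by being higher. Counting only the 27 above it on day 0, 8 were higher and 15 lower. LGR5, the R-spondin receptor, had 12.4, 16.3 and 7.54 in the day 6 libraries, against 1137, 1109 and 1283 in the day 0 libraries, and FZD5, a WNT receptor, had 1759.9, 1765 and 1788 in the day 6 libraries, against 23.2, 26.9 and 17.6 in the day 0 libraries. Among 29 FGF and ERK genes, 9 were higher and 16 lower. For the 26 above the filter limit on day 0 the counts were 6 and 16. The receptor FGFR3 had 1294 ± 97.999 on day 6 and 10.7 ± 4.84 on day 0, EGFR had 352 ± 23.9 on day 6 and 3607 ± 200.02 on day 0, and the ligand FGF5 had 50.7 ± 4.61 on day 6 and 1035 ± 70.9 on day 0. SMAD7, the feedback inhibitor of TGF-beta signalling, had 323 ± 55.01 on day 6 and 954 ± 52.2 on day 0.

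Inflammatory genes were mixed, with 12 of 28 higher and 14 lower, beside 37.9% and 36% of all genes tested. Counting only the 25 above the filter limit on day 0, 9 were higher and 14 lower. PTX3 had 192, 175 and 153 in the day 6 libraries, against 6317, 6134 and 6771 in the day 0 libraries, and PTGS2, cyclooxygenase 2, had 153, 133 and 151 in the day 6 libraries, against 2877, 2841 and 2886 in the day 0 libraries. PTGES, prostaglandin E synthase, went the other way, with 666 ± 27.8 on day 6 and 17.2 ± 2.91 on day 0, and LIF, a ligand of the IL6 family, had 173 ± 31.5 on day 6 and 2304 ± 61.6 on day 0. Interferon-stimulated genes were higher in 34 of 47 cases and lower in 7, with a median of 1.03. For the 44 above the filter limit on day 0 the counts were 33 and 7. IFI27 had 3898, 3826 and 3538 in the day 6 libraries, against 21.01, 20.6 and 35.8 in the day 0 libraries. MX1, an antiviral GTPase, had 7305, 7697 and 7443 in the day 6 libraries, against 179, 117 and 205 in the day 0 libraries, and OAS1, which makes the activator of RNase L, had 756, 891 and 821 in the day 6 libraries, against 25.8, 31.7 and 19.8 in the day 0 libraries. ISG15, a ubiquitin-like modifier, had 1729, 2021 and 1784 in the day 6 libraries, against 614, 597 and 677 in the day 0 libraries. The antigen presentation genes HLA-B and B2M had 2645 ± 124 and 15448 ± 644 on day 6 against 1266 ± 27.6 and 7804 ± 120.4 on day 0. STAT2, a signal transducer of interferon receptors, was lower, by -0.49.

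Cell division genes were higher. Of 50 G1/S and replication genes, 42 were higher and 3 lower, and of 41 G2/M genes, 38 were higher and 1, BUB3, a spindle checkpoint protein, lower (-0.20). Both medians were 0.94. CDC25A, the phosphatase that activates CDK2, had 1339, 1278 and 1304 in the day 6 libraries, against 143, 157 and 132 in the day 0 libraries. PLK1, a mitotic kinase, had 2749.7, 2805 and 3059 in the day 6 libraries, against 858, 946 and 758 in the day 0 libraries, and MKI67, the proliferation antigen, had 4589, 4500.2 and 4629 in the day 6 libraries, against 2632, 2306 and 2822 in the day 0 libraries. CCND1, cyclin D1, had 6142, 6651 and 6414 in the day 6 libraries, against 16189, 16015 and 16342 in the day 0 libraries and was lower, as were its partner kinases CDK4 and CDK6 (-0.15 and -0.64). Among p53 targets and senescence genes 14 of 32 were higher and 12 lower, beside 37.9% and 36% of all genes tested. CDKN1A, the inhibitor p21, had 524 ± 24.003 on day 6 and 778 ± 27.6 on day 0, and CDKN2A, with 1521 ± 126 on day 6 and 1413 ± 76.9 on day 0, was not called.

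Genes of growth and energy supply were mostly higher. Of 40 ribosome biogenesis genes 38 were higher and 1, UBTF, a factor of RNA polymerase I (-0.34), lower, with a median of 0.68. NOLC1, a nucleolar chaperone, had 5978, 5951 and 5993 in the day 6 libraries, against 1816, 1828 and 1936 in the day 0 libraries, and ODC1, the first enzyme of polyamine synthesis and a MYC target, had 5998, 5819.95 and 5905 in the day 6 libraries, against 1427, 1279 and 1311 in the day 0 libraries. Of 40 nuclear genes of oxidative phosphorylation 39 were higher and none lower, with a median of 0.78. COX5A, a cytochrome oxidase subunit, had 2337 ± 71.7 on day 6 and 903 ± 35.1 on day 0. Ribosomal protein genes split into 12 higher and 13 lower of 42, beside 37.9% and 36% of all genes tested. Their median was 0.03. Under quantile normalisation 33 were higher and 1 lower, with a median of 0.37, and with libraries set to a common median 7 were higher and 13 lower. RPL3 had a difference of -0.19 that was 0.48 under that scaling, and EEF1A1, an elongation factor, one of -0.34 that was 0.89, so the direction for these abundant genes depends on the scaling. MT-CO1, encoded by the mitochondrial genome, likewise had -0.31 and 1.02. Of the 15 genes of that genome tested, 8 were higher and 2 lower, with a median of 0.20.

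Glycolysis and hypoxia genes were lower in 25 of 35 cases and higher in 7, with a median of -0.50. Under quantile normalisation 20 were lower and 12 higher, with a median of -0.21. ADM, adrenomedullin, a hypoxia target, had 334, 308 and 304 in the day 6 libraries, against 3171, 3242 and 3415 in the day 0 libraries, and NDRG1 had 1120.3 ± 131 on day 6 and 6686 ± 128 on day 0. GAPDH and LDHA, glycolytic enzymes, had differences of -0.49 and -0.54 that were 0.25 and 0.10 under quantile normalisation. Sterol and fatty acid genes were higher in 21 of 33 cases and lower in 8. ELOVL6, a fatty acid elongase, had 2797, 2754 and 2856 in the day 6 libraries, against 614, 548 and 536 in the day 0 libraries, and TM7SF2, a sterol reductase of cholesterol synthesis, had 1004, 1062 and 1013 in the day 6 libraries, against 125, 186 and 116 in the day 0 libraries. In the amino acid and stress response list 11 of 34 were higher and 16 lower, beside 37.9% and 36% of all genes tested. DDIT3, a stress transcription factor, had 412 ± 31.8 on day 6 and 988 ± 70.8 on day 0.

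Chromatin genes went in both directions, as did all genes tested, of which 37.9% were higher and 36% lower. Among 42 genes of MRG15 partners, NuA4 and SIN3, 20 were higher and 14 lower, with a median of 0.12. RUVBL1, an ATPase of NuA4, had 2459, 2538 and 2439 in the day 6 libraries, against 899, 1033 and 1005 in the day 0 libraries, and SIN3B had 999.9 ± 115 on day 6 and 1567 ± 31.5 on day 0. Of 13 DNA methylation genes, 8 were higher and 2 lower. DNMT3B, a de novo methyltransferase, had 805, 819 and 1014 in the day 6 libraries, against 158, 124 and 142 in the day 0 libraries, and DNMT1, the maintenance enzyme, had 2426 ± 109 on day 6 and 2381 ± 205 on day 0 and was not called. Polycomb genes were higher in 16 of 33 cases and lower in 9. EZH2, a histone H3 lysine 27 methyltransferase, had 818 ± 36.3 on day 6 and 389 ± 18.1 on day 0, and its paralog EZH1 had 223 ± 30.6 on day 6 and 659.9 ± 81.1 on day 0. KDM1A, a lysine demethylase, had 10831, 10863 and 11209 in the day 6 libraries, against 2967, 2858 and 2883 in the day 0 libraries. SWI/SNF subunits split into 11 higher and 10 lower of 27, near the shares of all genes tested, 37.9% and 36%. The subunit SMARCD3 had 165 ± 8.12 on day 6 and 936 ± 19.7 on day 0. Histone lysine methylases and demethylases were higher in 19 of 40 cases and lower in 8.

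Known barriers to reprogramming included 12 higher and 10 lower genes of 29, near the shares of all genes tested, 37.9% and 36%. NR2F2, a nuclear receptor of mesenchyme, had 789, 851 and 868 in the day 6 libraries, against 3710.4, 3509 and 3756 in the day 0 libraries, and CHAF1A, a histone chaperone, had 1202 ± 38.99 on day 6 and 517 ± 60.1 on day 0. Splicing regulators were higher in 26 of 41 cases and lower in 7. HOX genes were higher in 14 of 30 cases and lower in 8, with HOXD1 at 537 ± 20.1 on day 6 and 1.75 ± 1.66 on day 0 and HOXA13 at 57.7 ± 13.9 on day 6 and 538 ± 38.7 on day 0. Imprinted genes were higher in 8 of 24 cases and lower in 14, and MEST had 476 ± 17.8 on day 6 and 4877 ± 127 on day 0. Of 18 genes of the IGF axis and oncofetal RNA binding, 7 were higher and 10 lower, with IGFBP7, a secreted IGF-binding protein, at 1668 ± 30.6 on day 6 and 15548 ± 39.6 on day 0. Tubulin and cytoskeleton genes were higher in 13 of 24 cases and lower in 7, and TUBB2B had 3976 ± 179.9 on day 6 and 254 ± 16.2 on day 0. Some members of these lists reached the filter limit on day 6 alone. Counting only those above it on day 0, 23 splicing genes were higher and 7 lower of 38. The counts were 11 and 8 of 27 for HOX and 6 and 14 of 22 for imprinted genes. They were 4 and 10 of 15 for the IGF and oncofetal list and 10 and 7 of 21 for the tubulin list.

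**Figure D4:**
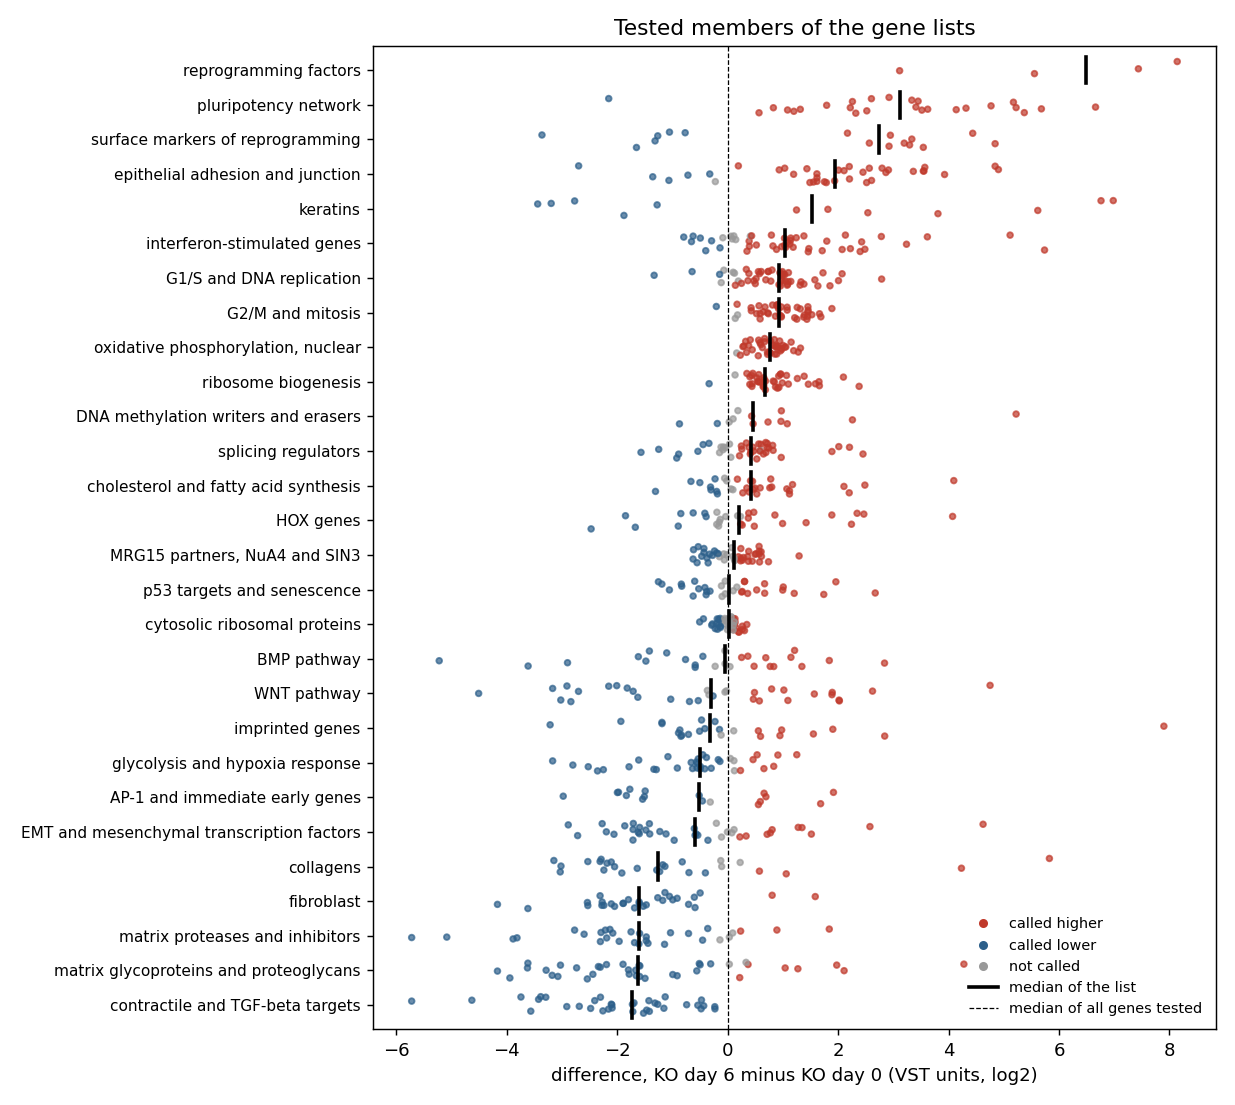
Each point is a tested member of a gene list, placed by its difference, KO day 6 minus KO day 0 (VST units). Red members were called higher, blue lower and grey not called, black bars are list medians and the dashed line is the median of all genes tested, 0.015. Only tested members are drawn, and medians run from -1.72 for contractile and TGF-beta targets to 6.50 for the reprogramming factors.

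Of the markers of other cell types, most did not pass the filter. Of 20 endoderm genes 6 were tested, 3 higher and 3 lower, and of 21 mesoderm and muscle genes 7 were tested, 5 higher and 2 lower. Of 27 trophoblast genes 10 were tested, 6 higher and 3 lower, and of 35 germline genes 5 were tested, 3 higher and 2 lower. Of 26 keratinocyte genes 8 were tested, 6 higher and 2 lower, of 14 endothelial genes 10 were tested, 5 higher and 3 lower (4 and 4 under quantile normalisation), and of 17 haematopoietic genes 5 were tested, 4 higher and 1 lower. Some reached the filter limit on day 6 alone, so they could enter only by being higher on day 6. They were 3 in the endoderm, 4 in the trophoblast, 4 in the keratinocyte and 3 in the haematopoietic list. The mesoderm and endothelial lists had 2 each and the germline list 1. Of the 3 endoderm genes above the limit on day 0, 3 were lower and none higher. Trophoblast had 2 higher and 3 lower of 6 such genes, keratinocyte 2 and 2 of 4, and haematopoietic 1 and 1 of 2. Mesoderm had 3 and 2 of 5, endothelial 3 and 3 of 8, and germline 2 and 2 of 4. FOXA1, an endoderm factor, had 264 ± 34.5 on day 6 and 1.94 ± 1.69 on day 0, and GATA2, a trophoblast and blood factor, had 488 ± 21.4 on day 6 and 11.2 ± 2.01 on day 0. ERVW-1, the syncytin of the placenta, had 1674, 1785 and 1696 in the day 6 libraries, against 2.34, 0.805 and 1.77 in the day 0 libraries. The haemoglobin gene HBA2 had 718, 713 and 655 in the day 6 libraries, against 0, 0 and 0 in the day 0 libraries, but it shares reads with HBA1, and HBB was 0 in all 6 KO libraries. The endothelial marker CDH5 had 8.47, 8.13 and 4.43 on day 6 and 9.03, 9.496 and 3.24 on day 0, whereas TEK, an angiopoietin receptor, had 3916 ± 200.3 on day 6 and 899.7 ± 35.4 on day 0. Summed endothelial markers ranged from 5459.8 to 5671 on day 6 and from 1658 to 1798 on day 0. Summed trophoblast markers ranged from 5876 to 5966 on day 6 and from 10838 to 11579 on day 0, so their sum was lower on day 6. Summed endoderm markers ranged from 685 to 729.8 on day 6 and from 397 to 408 on day 0. Summed keratinocyte markers ranged from 5367 to 5592 on day 6 and from 897 to 914 on day 0. Most of the day 6 sums was KRT14, at 4185, 4056 and 3928, whose reads are uncertain as said above. Of 46 neural genes 24 were tested, 17 of them higher and 6 lower. Here 3 reached the limit on day 6 alone and 3 on day 0 alone. Of the 21 above it on day 0, 14 were higher and 6 lower. STMN2, a regulator of microtubules in neurons, had 2941, 2844 and 2654 in the day 6 libraries, against 100.1, 82.4 and 107 in the day 0 libraries, and NEFL, a neurofilament, had 3751 ± 78.04 on day 6 and 214 ± 20.2 on day 0. The part of other cell types in these values was not tested.

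Some genes were listed at 0 on one day and above 0 on the other. In all, 561 identifiers were at 0 in every KO day 0 library and above 0 in every KO day 6 library, and 206 showed the reverse. Of genes at 0 in every KO day 0 library, 40 passed the filter, which they could do only through day 6. LINC00678, a long noncoding RNA, had 855, 890.5 and 906 on day 6, and NPSR1, the neuropeptide S receptor, had 706, 735 and 735. FABP4, a fatty acid carrier of adipocytes, had 44.9, 61.1 and 52.2 on day 0 and 0 in each day 6 library, a level below the filter.

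The change between the days was also compared with that in NT cells, by the interaction (the KO difference minus the NT difference). It was called for 3022 genes (20.3%), of which 1356 (9.1%) were more positive and 1666 (11.2%) more negative in KO cells. Of these, 2355 had the same direction in both and the larger difference in KO cells, 278 the same direction and the smaller, and 389 opposite directions. The median absolute difference was 0.491 in KO cells and 0.376 in NT cells. In 328 of the genes tested the NT mean lay under the filter. The filter used KO libraries alone, so a gene above the limit only in NT libraries was not tested or counted here.

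Fibroblast markers were more negative in KO cells in 26 of 30 cases, with medians of -1.60 in KO and -0.86 in NT cells. GREM1 had a difference of -5.22 in KO and -3.37 in NT cells (interaction -1.85, adjusted p = 7.95e-11). CPA4, a carboxypeptidase, had -2.72 in KO and -0.38 in NT cells (interaction -2.34, adjusted p = 5.80e-09). SNAI2 had -2.27 in KO and -0.91 in NT cells. DCN, decorin, was lower in KO cells, by -0.91, and had 0.25 in NT cells. RAB27B, a GTPase of vesicle release, had -1.61 in KO and 0.46 in NT cells.

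Interferon-stimulated genes were more positive in KO cells in 24 of 47 cases and more negative in none, with medians of 1.03 in KO and 0.48 in NT cells. On day 0 the list's mean VST value was lower in KO libraries, at 8.28 to 8.41, than in NT libraries, at 8.63 to 8.98. On day 6 the ranges overlapped, at 9.48 to 9.57 in KO and 9.27 to 9.53 in NT libraries. IFI27 averaged 3754 ± 190.4 in KO day 6 and 25.8 ± 8.65 in KO day 0 libraries, and 825 ± 132 in NT day 6 and 59.5 ± 4.88 in NT day 0 libraries (interaction 2.74, adjusted p = 4.96e-08). ISG15 had 1.47 in KO and 0.02 in NT cells. Nuclear genes of oxidative phosphorylation were more positive in KO cells in 21 of 40 cases. SOX2, among the factors, had 8092 ± 306 in KO day 6 and 5216 ± 264 in NT day 6 libraries. Its interaction was 0.82 (adjusted p = 2.29e-04). KLF4 and MYC were called too, at 0.244 (adjusted p = 0.0131) and 0.240 (adjusted p = 0.0205). POU5F1 had 6211 ± 141 in KO day 6 and 4018 ± 71.7 in NT day 6 libraries. Its interaction of 0.40 ± 0.19 was not called (adjusted p = 0.163). SOX2 and POU5F1 were at or near 0 on day 0, where the difference depends on the transformation. For LIN28A the interaction was 1.47 and for DNMT3L 1.64, while NANOG, at 0.12, was not called. Keratins were more negative in KO cells in 9 of 12 cases, with KRT17 at 3.81 in KO and 6.02 in NT cells.

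**Figure D5:**
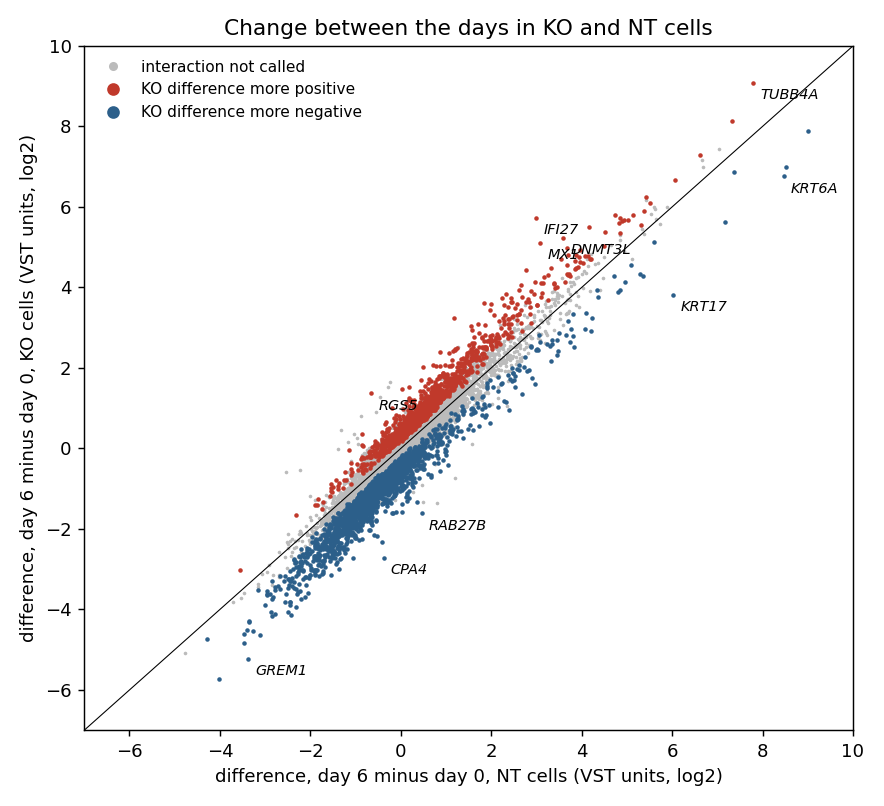
Each point is a gene tested, with the day 6 minus day 0 difference in NT cells on the horizontal axis and in KO cells on the vertical axis (both VST units). The line marks equal differences, red and blue genes have a called interaction (1356 more positive, 1666 more negative) and grey genes do not. IFI27 lies above the line at 5.74 in KO and 3.00 in NT cells, and CPA4 below it at -2.72 and -0.38.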

How the data were processed

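Messenger RNA of 12 libraries was sequenced with a TruSeq stranded kit, per the labels' protocols. STAR, Salmon and DESeq2 are named, without versions, in the submitters' processing notes, as is the build GRCh38. For the annotation used, the release is not given in the sources used here. Values in the deposited table are log2-scale values from the authors' variance-stabilising transformation, 1 column per library. Its minimum, 4.85, stands for 0 reads. No count table was used. Normalised counts were estimated by inverting the parametric form of the transformation, which was assumed. Of low values, 62.9 to 69.9% per library lay no more than 0.1 from a whole number once scaled, so reads were not recovered and no count model was fitted. Depth is the matching estimate.

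limma 3.58.1 in R 4.3.3 was fitted with a trend to all 12 libraries in 1 model. Genes tested had a KO mean at least 1 above the minimum, about 14.4 estimated counts for a gene even across libraries. Tests were two-sided, with Benjamini-Hochberg adjustment over all genes tested. The fit was tested on simulated data. No replicate pair was identical, and pairs differed by more than sampling noise. Coordinates are GENCODE release 29, GRCh38.

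The comparison, the 45 gene lists and the tests were chosen with earlier results of these data known. The genes named are set by a rule, which takes MORF4L1 and the 4 OSKM factors, among called genes without overlap the 12 with the highest and the 12 with the lowest difference, the 8 highest and 8 lowest with both means at least 5 above the minimum, the 6 most abundant genes at 0 in each day, the 6 most positive and 6 most negative interactions, and up to 4 called members per list (2 where none was called). Not all genes it takes are described, and some results are not reported here. NANOG, LEFTY2, SALL4, TDGF1, UTF1, PRDM14, SFRP2, EPCAM, ALPL, THY1, CD44, NT5E, ENG, KRT8, KRT18, KRT7, KRT34, KRT5, TP63, CLDN1, SNAI2, PRRX1, ZEB1, ZEB2, TWIST1, TBX18, FOS, FOSL2, COL1A1, COL6A3, ACTA2, DCN, S100A4, ISG15, HLA-B, B2M, CDKN1A, CDKN2A, MORF4L2, DNMT1, CCND1, MKI67, RPL3, STAT2, GAPDH, LDHA, CDH5, HBB, SMAD7, EEF1A1, MT-CO1, EZH2, ICAM1, BUB3, CDK4, CDK6 and UBTF were named outside the rule, after their values were seen. Alternatives were other filters, scalings, pseudocounts of 1 and 10, variance models, only KO libraries, the replicate block and each library left out.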

Additional observations from a re-analysis of the deposited data

Results flagged for a closer look

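The difference between the days was itself different in KO and NT cells for 1356 genes more positive and 1666 genes more negative in KO cells, by the interaction in limma. Of the 241 tested genes in the table of named genes, 164 were called for it, and those with an interaction of at least 1.5 in size, a limit chosen after the data were seen, are given here.

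The interaction was positive for IFI27 (2.74), IFI6 (2.07), MX1 (2.03), RGS5 (2.02), OAS1 (1.76), ALPG (1.67), DNMT3L (1.64) and ESAM (1.60). It was negative for CPA4 (-2.34), KRT17 (-2.21), RAB27B (-2.07), PKD1P5 (-1.90), GREM1 (-1.85), SERPINB7 (-1.72), KRT6A (-1.71), OSR1 (-1.67), THBS1 (-1.63), COL12A1 (-1.59), KRT16 (-1.55), KRT14 (-1.54), INHBA (-1.54) and ITGA11 (-1.51). IFI27, MX1, IFI6 and OAS1 are interferon-stimulated genes, and GREM1, ITGA11, THBS1, COL12A1 and INHBA are genes of the matrix and its signals. Members of the keratin group (KRT6A, KRT14, KRT16, KRT17), ALPG and the pseudogene PKD1P5 have close copies, so their reads may be split among them.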

How the results depend on the processing

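The counts of higher (5643) and lower (5358) genes kept within 1.5 times of their value under each of the 11 other settings, from 4787 to 6647 higher and from 4563 to 5695 lower, and from 5381 to 5693 and from 5083 to 5380 with each of the 12 libraries left out. The interaction counts ran from 906 (no filter) to 1535 for more positive and from 1327 to 1738 for more negative genes, and from 1003 to 1381 and 1422 to 1672 with a library left out. Same-numbered KO libraries had residual correlations of -0.0206 to 0.00821, which gave no ground for pairing. With the replicate number as a block 5656 genes were higher, 5365 lower, 1335 more positive and 1620 more negative. Quantile normalisation turned the direction of RPL3 (to 0.48), GAPDH (to 0.254), LDHA (to 0.0971), EEF1A1 (to 0.892) and MT-CO1 (to 1.02). The cause was not tested. It also took RPL10 to -0.0550 (adjusted p = 0.281). Depth of 17.8 to 22.2 M estimated reads limits genes under the filter, which were not tested. The filter stands at about 14.4 estimated counts for a gene even across the 6 KO libraries. A gene seen on 1 day alone could be left out at higher counts, as FABP4 was at 44.9, 61.1 and 52.2 on day 0.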
